A study of Mus musculus with 16 samples.

Results

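The genes described here encode enzymes and regulators of sterol and fatty acid synthesis, followed across 3 groups of sorted mouse microglia. They were taken by symbol from a list of 37 genes, of which 35 were found among the 17951 genes of the expression table. Tm7sf2 and Fads2 were not analysed here, since no row carried either symbol (the row with the identifier of Tm7sf2 was named Vps51). The 35 genes fell into a sterol branch of 17, a fatty acid branch of 13 and 5 regulators. The 3 groups were WT microglia negative for Me-X04 (7 libraries), TG Me-X04- microglia (5 libraries) and TG Me-X04+ microglia (4 libraries). All were sorted as live Cd11b+ and Cd45+ cells, and by the methods the gate also asked for CX3CR1+. The mice had been injected with Methoxy-X04, a dye that enters the brain and stains amyloid, so that Me-X04+ cells are those laden with Aβ. The TG mice were 5xFAD mice, whose mutant human transgenes are driven in neurons by the Thy1 promoter, and the strain label of the WT libraries also reads 5xFAD. The labels give an age of 2 months for WT and 6 months for both TG groups, while the study's methods give other ages, so by the labels age and genotype cannot be told apart in a comparison with WT. Each TG Me-X04+ library carried the same animal label as a TG Me-X04- library, which gave 4 pairs.

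Cells make cholesterol and unsaturated fatty acids from acetyl-CoA under the control of the SREBP transcription factors. When sterols are scarce, SCAP escorts SREBPs from the endoplasmic reticulum to the Golgi, where they are cleaved and released to activate genes of synthesis and uptake, and when sterols are plentiful the INSIG proteins hold SCAP back. SREBF2 acts mainly on sterol genes and SREBF1 mainly on fatty acid genes. Microglia that engulf myelin or Aβ take in lipid and must store, modify or export it, and the genes below run from the first step of the mevalonate pathway to cholesterol, and from citrate to long unsaturated fatty acids.

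SREBPs bind sterol regulatory elements, often beside a CCAAT box bound by NF-Y, so promoters were searched on both strands for TCACNCCAC, a form of the sterol regulatory element, and for CCAAT. RefSeq windows on GRCm38.p6, from 250 bases before to 50 after a transcription start, were found for 28 of the 35 genes (38 windows). CCAAT stood in 65.8% of these windows, against 37.4% of all 32851 windows, and TCACNCCAC stood in 5.26% against 1.24%, which comes to 2 genes, Hmgcs1 and Acsl1. Neither motif contains the other. The windows of the 6 genes that had one among the 10 that differed between groups are shown 5′ to 3′ because these genes carry the results below. Capitals mark the motifs in either orientation, CCAAT reading ATTGG on the opposite strand.
Hmgcs1, chr13:119690101-119690400, plus strand: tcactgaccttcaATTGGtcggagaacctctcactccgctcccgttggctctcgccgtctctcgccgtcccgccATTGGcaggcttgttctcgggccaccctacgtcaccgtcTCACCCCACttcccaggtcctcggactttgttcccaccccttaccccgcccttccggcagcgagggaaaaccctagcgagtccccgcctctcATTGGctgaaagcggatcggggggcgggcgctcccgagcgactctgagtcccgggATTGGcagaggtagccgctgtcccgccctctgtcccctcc
Idi1, chr13:8885356-8885655, plus strand: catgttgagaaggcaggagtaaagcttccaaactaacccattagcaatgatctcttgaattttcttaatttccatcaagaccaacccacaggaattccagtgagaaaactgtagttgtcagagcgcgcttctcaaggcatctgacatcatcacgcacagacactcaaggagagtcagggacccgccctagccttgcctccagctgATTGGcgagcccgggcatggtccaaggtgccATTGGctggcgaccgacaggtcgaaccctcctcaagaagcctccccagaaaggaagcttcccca
Insig1, chr5:28071162-28071461, plus strand: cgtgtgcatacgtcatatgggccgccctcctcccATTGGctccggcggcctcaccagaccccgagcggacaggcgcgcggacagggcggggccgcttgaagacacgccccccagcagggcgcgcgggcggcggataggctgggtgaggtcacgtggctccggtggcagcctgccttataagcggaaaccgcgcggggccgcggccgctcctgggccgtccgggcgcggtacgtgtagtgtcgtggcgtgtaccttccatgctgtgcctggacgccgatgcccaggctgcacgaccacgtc
Srebf2, chr15:82147019-82147318, plus strand: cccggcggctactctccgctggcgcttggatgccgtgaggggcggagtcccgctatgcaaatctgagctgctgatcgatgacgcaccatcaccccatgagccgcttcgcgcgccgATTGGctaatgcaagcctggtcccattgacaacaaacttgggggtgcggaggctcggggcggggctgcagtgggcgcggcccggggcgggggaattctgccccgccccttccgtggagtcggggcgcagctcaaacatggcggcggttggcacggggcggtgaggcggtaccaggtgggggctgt
Acaca, chr11:84195188-84195487, plus strand: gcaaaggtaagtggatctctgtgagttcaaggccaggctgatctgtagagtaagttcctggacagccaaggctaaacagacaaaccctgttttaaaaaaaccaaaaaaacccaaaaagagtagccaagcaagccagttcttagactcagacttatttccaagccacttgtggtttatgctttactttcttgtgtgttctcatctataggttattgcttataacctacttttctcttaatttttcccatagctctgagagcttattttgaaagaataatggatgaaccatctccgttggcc
Acsl5, chr19:55253119-55253418, plus strand: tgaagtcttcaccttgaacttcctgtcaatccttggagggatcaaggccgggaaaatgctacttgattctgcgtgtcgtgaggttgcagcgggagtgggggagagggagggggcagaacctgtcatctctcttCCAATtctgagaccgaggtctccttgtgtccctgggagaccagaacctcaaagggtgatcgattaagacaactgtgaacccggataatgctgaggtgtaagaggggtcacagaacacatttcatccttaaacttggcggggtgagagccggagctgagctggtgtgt
Hmgcs1 held 1 TCACNCCAC, at position -137 from the start, and 4 CCAAT boxes. Idi1 held 2 CCAAT boxes, and Insig1, Srebf2 and Acsl5 held 1 each. The Acaca window held neither motif. The windows of Acaca and Acsl5 lie inside the annotated genes, at a start other than the outermost. A match of letters is a description and not a bound site.

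The values are log2 RPKM (reads scaled to gene length and library size) as deposited, with a small prior added to the reads, so a log2 fold change (log2FC) understates the change of a gene with few reads. The depth, as reads recovered from the values, was 15623664 to 22119327 for WT, 17216633 to 25184600 for TG Me-X04- and 22430251 to 27579017 for TG Me-X04+ libraries. Genes with 0 reads numbered 55 to 1381, 83 to 703 and 450 to 1831 a library in these groups. The methods describe a later sequencing platform with longer reads for additional samples, without naming the libraries. The libraries fell into a set A of 7 (WT 1 to 3 and libraries 1 and 2 of either TG group) and a set B of 9 on the first principal component, which took 37.8% of the variance within groups, and differences within sets A and B are given for the 10 genes called, in both comparisons of TG Me-X04+ microglia. Microglial markers were high in every library, with a summed level of 10 markers between 4250 and 8241 RPKM. The 4 of 6 oligodendrocyte markers in the table, which matter here because oligodendrocytes make much cholesterol, summed to 1.11 to 8.10 RPKM in WT, 4.24 to 6.09 in TG Me-X04- and 2.71 to 7.65 in TG Me-X04+, and the group ranges overlapped. Astrocyte markers (4 of 6) summed to 15.1 to 29.4, 13.2 to 25.5 and 9.70 to 19.3 RPKM. Endothelial markers (4 of 6) summed to 2.55 to 13.8, 2.00 to 3.01 and 1.32 to 8.49 RPKM, and among them Flt1 rose in TG Me-X04+ against TG Me-X04- microglia (log2FC 3.55, adjusted p = 0.00608). The rest of these markers went the other way and were not called. Their mean log2 RPKM in TG Me-X04+ against TG Me-X04- libraries was -1.94 against 0.53 (Pecam1), -1.72 against -0.74 (Kdr) and -3.67 against -1.25 (Cdh5). Of the microglial markers Tmem119 fell (-1.58, adjusted p = 0.00821) and Trem2 rose (1.35, adjusted p = 0.0021) in that comparison. Markers of border macrophages and monocytes (4 of 6) summed to 4.07 to 7.55, 3.13 to 7.74 and 1.77 to 18.02 RPKM. The part of these cells in the results was not tested.

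Which of these genes differed with Aβ uptake in the TG mice was asked by comparing TG Me-X04+ with TG Me-X04- microglia. Acaca, Hmgcs1 and Sqle rose in TG Me-X04+ microglia, by 6.95-fold, 2.02-fold and 2.58-fold, and no member fell. A gene was called where the limma p, adjusted over all 17951 genes, was under 0.05 and the log2FC was 0.7 or more in either direction. By this rule 3 of 35 members were called higher, where 3.44% of all genes were, and 0 were called lower, where 2.06% of all genes were. At an unadjusted p under 0.05 there were 10 members, all higher, where 1633 of the 17951 genes were higher and 1730 lower. Limma voom on the recovered reads called 5 members higher and 0 lower, and its share over all genes is not reported here. The 2 groups did not overlap for 8 members higher and 0 lower, where they did not overlap for 4.8% of all genes higher and 3.14% lower. The log2FC was above 0 for 24 members and below 0 for 11, with a median of 0.41, whereas the median of all genes was -0.09. With a scaling on the reads that lie outside mitochondrial genes, the medians were 0.14 and -0.36, and Acaca was then the 1 member called. In RNA from pooled sorted cells, a difference in the share of cells with a transcript and a difference in RNA per cell cannot be told apart.

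Acaca encodes acetyl-CoA carboxylase, which makes the malonyl-CoA that fatty acid synthesis consumes, and it lies at chr11:84129672-84401651 on the plus strand of GRCm38. Its log2 RPKM was 3.47, 2.88, 2.45 and 2.39 in TG Me-X04+ libraries 1 to 4, from 1882 to 2495 reads each. In the TG Me-X04- libraries it was 0.59, -0.49, 0.05, -0.11 and -0.04 (240 to 484 reads). Every TG Me-X04+ library thus stood above every TG Me-X04- library. The log2FC was 2.80 (SE 0.42, adjusted p = 0.00107), with 3.12 within set A and 2.45 within set B, and the pairs of the same animal differed by 2.88, 3.37, 2.39 and 2.51. With the animal as a replicate block, over the 4 pairs of TG libraries alone, the log2FC was 2.79 (adjusted p = 0.0036), and Acaca was called in all 16 alternatives and all 16 fits that left out 1 library. In the reference transcripts, 29.2% of its words of 50 bases also occur in Gm5182, a processed pseudogene that was not analysed here, so some of its reads could stem from that copy.

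Hmgcs1 encodes HMG-CoA synthase, the enzyme that condenses acetoacetyl-CoA with acetyl-CoA at the head of the mevalonate pathway (chr13:119690379-119708260, plus strand), and its promoter is the first one printed above. Its log2 RPKM was 3.83, 2.70, 2.38 and 2.56 in TG Me-X04+ and 1.81, 2.28, 1.84, 1.64 and 1.70 in TG Me-X04- libraries. The groups did not overlap, but TG Me-X04+ 1 stood well above the other three. The log2FC was 1.01 (SE 0.28, adjusted p = 0.0424), and sets A and B gave 1.21 and 0.74. With the animal as a random block Hmgcs1 was called (1.00, adjusted p = 0.00963), while the call was lost with the animal as a fixed replicate block (0.97, adjusted p = 0.14) and in 10 of 16 fits that left out 1 library, where the log2FC ranged from 0.69, without TG Me-X04+ 1 (adjusted p = 0.108), to 1.17.

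Sqle encodes squalene epoxidase, a slow oxygen-requiring step of the sterol pathway (chr15:59315077-59331192, plus strand). Its log2 RPKM was 0.56, 2.03, 0.75 and 0.89 in TG Me-X04+ and -0.15, 0.08, -0.06, -0.47 and -0.95 in TG Me-X04- libraries. Here TG Me-X04+ 2 was the highest, and again the groups did not overlap. The log2FC was 1.37 (SE 0.39, adjusted p = 0.0489), and sets A and B gave 1.33 and 1.32. Sqle was called with the animal as a random block (1.31, adjusted p = 0.0117). The call was lost with the animal as a fixed replicate block (1.21, adjusted p = 0.18) and in 14 of 16 fits without 1 library, the lowest value being 1.04 without TG Me-X04+ 2 (adjusted p = 0.153).

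**Figure D1:**
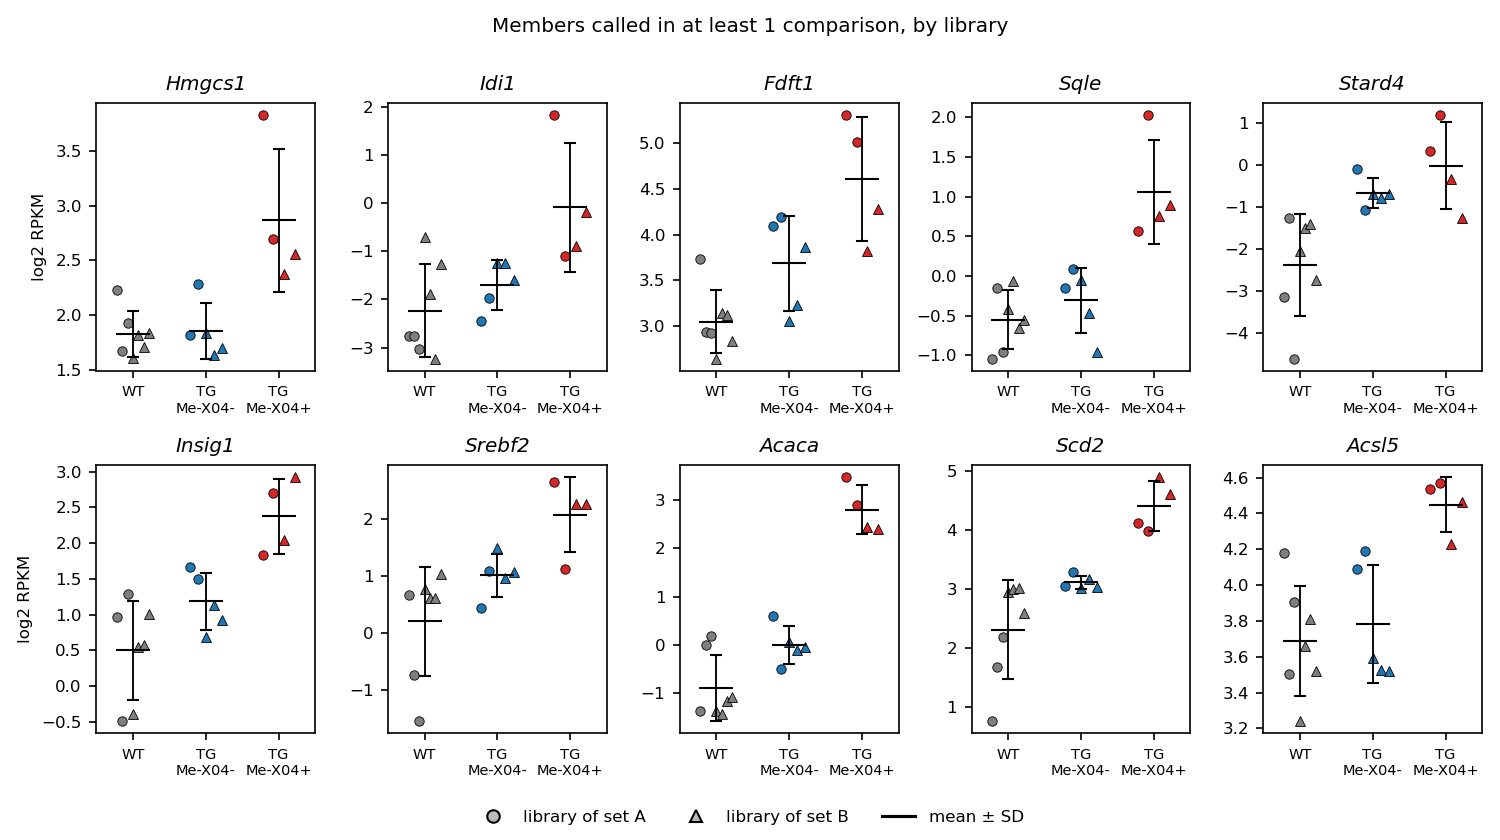
Log2 RPKM (vertical axes, each with its own range) of the 10 genes called in at least 1 comparison, in every library, by group (horizontal axes). Points are libraries, circles those of set A and triangles those of set B, with the group mean and SD, and all 4 TG Me-X04+ libraries lie above every TG Me-X04- library for Hmgcs1, Idi1, Sqle, Insig1, Acaca, Scd2 and Acsl5.

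The other mevalonate enzymes did not pass the test between the 2 TG groups. Idi1, the isopentenyl diphosphate isomerase, stood at 1.83, -1.10, -0.89 and -0.19 in TG Me-X04+ and at -2.45, -1.96, -1.25, -1.25 and -1.60 in TG Me-X04- libraries. The groups did not overlap, yet the spread was wide, with 163 reads in TG Me-X04+ 1 and 23 to 70 in the other three, and the log2FC of 1.61 (SE 0.66) had an adjusted p of 0.186, with 2.57 within set A and 0.82 within set B. Idi1 shares 17.7% of its words of 50 bases with the processed pseudogene Gm13502, which had 11 to 32 reads in TG Me-X04+ libraries and was itself called (log2FC 2.21, adjusted p = 0.0456), so reads may have been split between them. Mvk, the mevalonate kinase, had the lowest log2FC of all members at -1.35 (SE 1.06, adjusted p = 0.552). Its reads were 0, 10, 48 and 40 in TG Me-X04+ and ran from 17 to 78 in TG Me-X04-, and the difference was -0.09 within set B, which does not hold the empty library, TG Me-X04+ 1. Pmvk, Mvd and Fdps ran from -0.34 to 1.13, with adjusted p of 0.416 to 0.81, and Pmvk, the phosphomevalonate kinase, was at -0.04 within set A and 1.59 within set B.

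Of the 10 genes from squalene to cholesterol, 9 had a log2FC above 0 and Sqle was the 1 called. Fdft1, the squalene synthase that commits farnesyl diphosphate to sterols, stood at 5.31, 5.01, 3.82 and 4.28 in TG Me-X04+ and at 4.09, 4.20, 3.05, 3.23 and 3.86 in TG Me-X04- libraries. These overlapped, the set A libraries being higher than those of set B in TG Me-X04+, and within a pair the difference was 1.22, 0.81, 0.77 and 1.05. The log2FC was 0.92 (SE 0.32, adjusted p = 0.112), with 1.02 and 0.67 within sets A and B. With the animal as a block Fdft1 was called, whether fixed (0.96, adjusted p = 0.0139) or random (0.94, adjusted p = 0.014). On the genome (chr14:63145150-63179578, minus strand) 18.3% of its exonic bases overlap Ctsb, the gene of the lysosomal protease cathepsin B, on the opposite strand. Ctsb had 16893 to 25373 reads in TG Me-X04- and 29309 to 61332 in TG Me-X04+ libraries and rose by 1.54 (adjusted p = 0.000287), and, as the strand setting of the counting is not given in the sources used here, reads of the overlap cannot be assigned to either gene. Nsdhl, which removes methyl groups of the sterol ring, had a log2FC of 0.81 (SE 0.31, adjusted p = 0.145). Lss, the lanosterol synthase that closes the ring, had the lowest value of the 10 at -0.72 (SE 0.72, adjusted p = 0.652), with 24 and 66 reads in TG Me-X04+ 1 and 4 against 143 and 341 in the other two. Cyp51, Msmo1, Hsd17b7, Ebp, Sc5d and Dhcr7 ran from 0.17 to 0.57, with adjusted p of 0.56 to 0.937. Stard4, which carries cholesterol between membranes, stood at 0.32, 1.19, -0.34 and -1.25 against -0.09, -1.07, -0.70, -0.80 and -0.69, and its log2FC of 0.65 (SE 0.66) had an adjusted p of 0.662, with 1.33 within set A and -0.07 within set B.

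Among the 5 regulators, Insig1 and Srebf2 had a log2FC above 1 and the others lay near 0, and 0 of the 5 were called. Insig1, both a retainer of SCAP and a target of SREBPs, stood at 1.83, 2.71, 2.04 and 2.92 in TG Me-X04+ and at 1.67, 1.50, 0.69, 1.14 and 0.93 in TG Me-X04- libraries (chr5:28071363-28078662, plus strand). The groups did not overlap, and the log2FC was 1.19 (SE 0.40, adjusted p = 0.0988), with 0.68 and 1.56 within sets A and B. Insig1 was called with the animal as a random block (1.16, adjusted p = 0.0266), with voom and under log2(RPKM + 1), and not with the animal as a fixed block (1.12, adjusted p = 0.115). Srebf2, the sterol-directed SREBP gene (chr15:82147181-82205379, plus strand), stood at 2.65, 1.13, 2.27 and 2.27 against 0.44, 1.08, 1.50, 0.97 and 1.06. The groups overlapped through TG Me-X04+ 2, and the log2FC was 1.07 (SE 0.50, adjusted p = 0.253), with 1.13 and 1.09 within the sets. Srebf1, the fatty-acid-directed SREBP gene, had a log2FC of -0.22 (SE 0.50, 95% interval -1.27 to 0.83), with -0.93 within set A and 0.53 within set B. Scap was at -0.23 (SE 0.48, adjusted p = 0.848) and Insig2, the other INSIG gene, at -0.13 (SE 0.37, adjusted p = 0.895).

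In the fatty acid branch, 1 of 13 genes was called, Acaca, and 8 were above 0. Scd2, a stearoyl-CoA desaturase that makes monounsaturated fatty acids (chr19:44293674-44306864, plus strand), stood at 4.11, 3.99, 4.90 and 4.61 in TG Me-X04+ and at 3.06, 3.29, 3.02, 3.16 and 3.03 in TG Me-X04- libraries. The groups were well apart, with 1247 to 3723 reads against 749 to 1235, and the log2FC of 1.29 (SE 0.39) had an adjusted p of 0.0615, which became 0.0167 with the animal as a fixed replicate block (1.27) and 0.0118 with it as a random one (1.28). Sets A and B gave 0.88 and 1.68. Acsl5, an acyl-CoA synthetase that activates fatty acids (chr19:55251938-55297720, plus strand), stood at 4.54, 4.57, 4.23 and 4.46 against 4.09, 4.19, 3.59, 3.53 and 3.52, a narrow separation with a log2FC of 0.66 (SE 0.22, adjusted p = 0.0849), or 0.41 and 0.80 in the sets. Acly, which cleaves citrate to cytosolic acetyl-CoA, differed by 0.67, 0.75, 0.72 and 0.48 in the 4 pairs, while its log2FC between the groups was 0.74 (SE 0.41, adjusted p = 0.364). Fasn, the fatty acid synthase, was at 0.79 (SE 0.59, adjusted p = 0.522), with 72 reads in TG Me-X04+ 1 and 401 to 977 in the other three, and with 0.11 in set A and 1.46 in set B. Scd1, the other stearoyl-CoA desaturase, had the lowest value of the branch at -0.60 (SE 1.04, adjusted p = 0.814), from 0, 39, 68 and 28 reads. Fads1, the delta-5 desaturase, was the 1 member lower in all 4 pairs, by 0.30, 0.66, 0.27 and 0.29, and its log2FC was -0.38 (SE 0.20, adjusted p = 0.341). The elongases Elovl1, Elovl5 and Elovl6 ran from -0.36 (Elovl1, adjusted p = 0.686) to 0.34 (Elovl5, adjusted p = 0.683), and the synthetases Acsl1, Acsl3 and Acsl4 from -0.33 (Acsl1, adjusted p = 0.519) to 0.01.

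**Figure D2:**
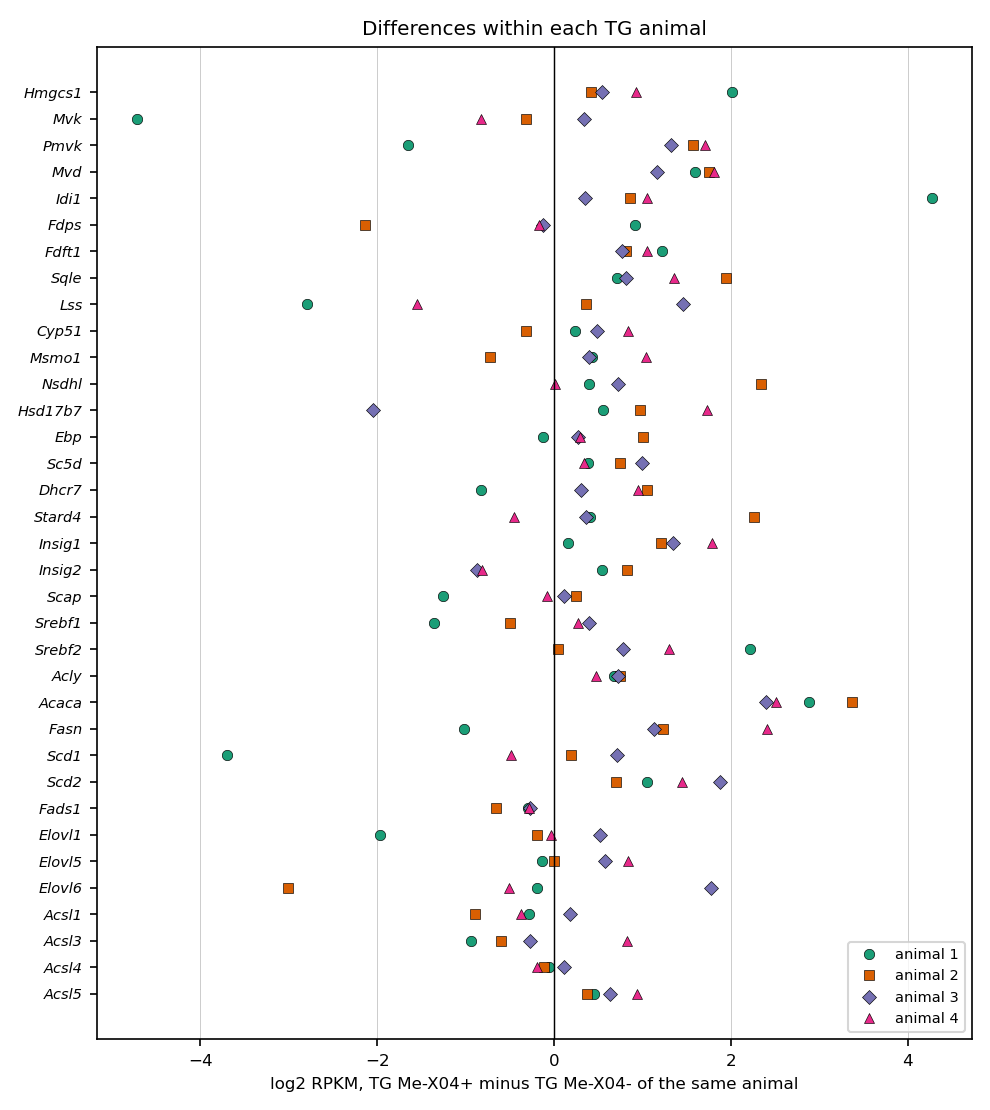
Difference in log2 RPKM between the TG Me-X04+ and the TG Me-X04- library of the same animal (horizontal axis) for the 35 genes (vertical axis), with 1 symbol for each of 4 animals. Acaca lies between 2.39 and 3.37 in all 4 animals, whereas Mvk, Lss, Scd1 and Elovl6 scatter on both sides of 0.

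Within the 4 pairs, 13 members were higher in every TG Me-X04+ library, 7 of the sterol branch, 2 regulators and 4 of the fatty acid branch, and 1 was lower. Over all genes 15.1% were higher and 13.1% lower in every pair. The 13 were Hmgcs1, Mvd, Idi1, Fdft1, Sqle, Nsdhl, Sc5d, Insig1, Srebf2, Acly, Acaca, Scd2 and Acsl5. Mvd, the decarboxylase of the mevalonate pathway, differed by 1.59, 1.75, 1.17 and 1.81 within pairs, although its group values overlapped. Its reads in animals 1 to 4 were 6, 3, 13 and 29 in TG Me-X04- and 17, 11, 27 and 100 in TG Me-X04+ libraries. The 2 sets of libraries differed in how many members were above 0, with 19 of 35 in set A and 25 of 35 in set B, and 16 members were above 0 in both. In set A, which has 2 libraries in either TG group, 5 of 13 fatty acid genes were above 0, and in set B 9 of 13 were. Shares over all genes within each set are not given here.

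Whether genotype without Aβ uptake went with a difference was asked by comparing TG Me-X04- with WT microglia. No member passed the test in limma, with 0 called higher and 0 lower, where 0.189% of all genes were called higher and 0.0111% lower. At an unadjusted p under 0.05 there were 4 members, all higher, where 591 of 17951 genes were higher and 338 lower. In this limma fit on the log2 values the 4 were Stard4 (log2FC 1.71, adjusted p = 0.602), Acaca (0.88, adjusted p = 0.85), Scd2 (0.80, adjusted p = 0.866) and Fdft1 (0.64, adjusted p = 0.915). Limma voom also called 0 and had 4 members at that level, which are not named here. The groups did not overlap for 2 members higher, Stard4 and Scd2, and for 0 lower, where 0.652% and 0.407% of all genes did not overlap. The log2FC was above 0 for 29 of 35 members with a median of 0.53, and the median of all genes was 0.01. A value above 0 was found for 31 members in set A (median 0.91) and 22 in set B (median 0.17), and of the 13 fatty acid genes for 13 in set A and 6 in set B. The median of all genes within each set is not given here, so a general shift within a set cannot be judged. The difference in age by the labels stands beside all of these values.

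Stard4 was the member with the clearest separation from WT in TG Me-X04- microglia. Its log2 RPKM ran from -4.60 over a median of -2.04 to -1.26 in the 7 WT libraries, from 2 to 51 reads. In the TG Me-X04- libraries it had 85, 51, 92, 79 and 83 reads. The gene lies on the minus strand of chromosome 18, and sets A and B gave differences of 2.42 and 1.19. For Hmgcs1 the 95% interval of the difference was -0.49 to 0.54, whereas for Srebf2 (0.81, -0.11 to 1.72) and Insig1 (0.68, -0.06 to 1.42) the intervals were wide.

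**Figure D3:**
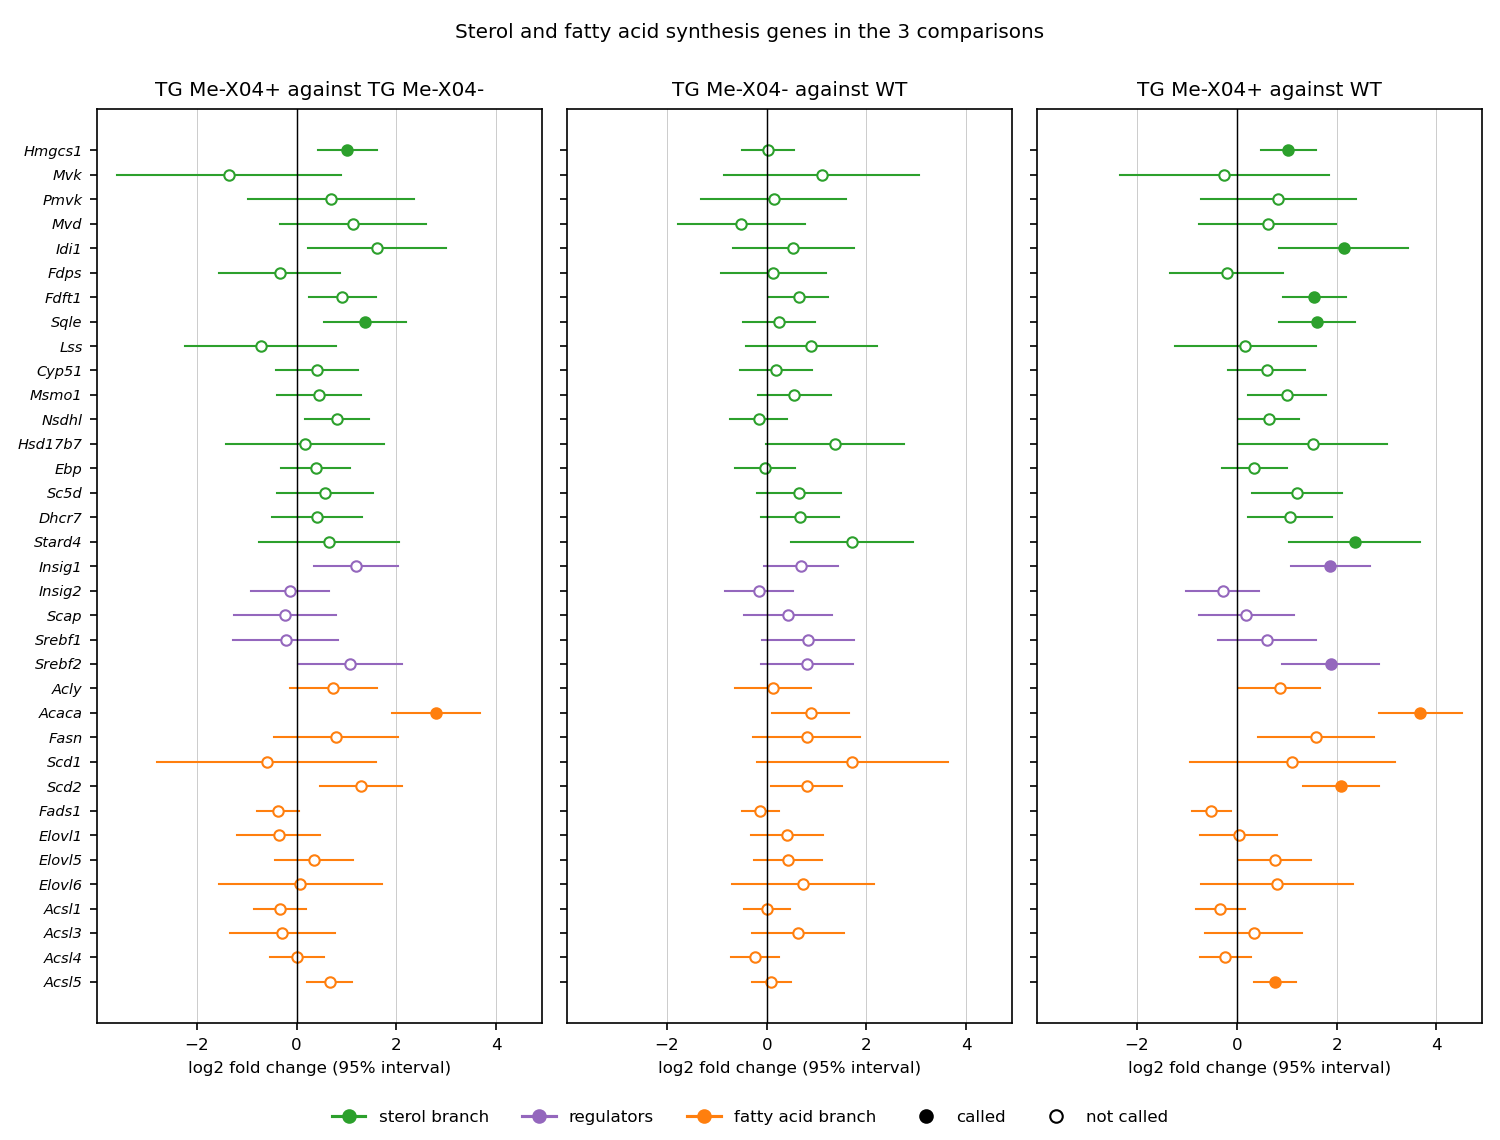
Log2 fold change with its 95% interval (horizontal axes) for the 35 genes in the order of the pathways (vertical axis) in the 3 comparisons, coloured by branch, with filled points for called genes. Filled points number 3 for TG Me-X04+ against TG Me-X04-, 0 for TG Me-X04- against WT and 10 for TG Me-X04+ against WT, all to the right of 0.

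The comparison of TG Me-X04+ with WT microglia joins Aβ uptake, genotype and, by the labels, age. Of the 35 members 10 rose and 0 fell, where 8.25% of all genes were called higher and 6.02% lower. The groups did not overlap for 9 members higher and 0 lower, where 6.56% of all genes did not overlap higher and 3.97% lower. There were 19 members at an unadjusted p under 0.05, of which Fads1 alone was lower (log2FC -0.51, adjusted p = 0.0823). Of all 17951 genes 2439 were higher and 2556 lower at that level. The median log2FC was 0.81 for members and -0.11 for all genes. This comparison shares its TG Me-X04+ libraries with the first and its WT libraries with the second, so the 3 sets of values are not independent. Of the other markers Flt1 (5.87) rose and Pecam1 (-4.83), both endothelial, the neuronal Snap25 (-3.19), the monocyte gene Ccr2 (-1.57) and the microglial P2ry12 (-0.97) fell in the same comparison, beside Tmem119 (-1.55) and Trem2 (1.49). Neuronal markers (3 of 6) summed to 0.461 to 1.91 RPKM for WT against 0.106 to 0.489 for TG Me-X04+, and those of granulocytes and lymphocytes (3 of 6) to 0.387 to 11.9 and 0.503 to 7.56. Their part in the members' values was not tested.

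Acaca had the largest log2FC of the members, 3.68 (SE 0.39, adjusted p = 8.7e-06), a 12.8-fold difference, with 3.57 and 3.67 within sets A and B. In WT libraries it ran from -1.42 over a median of -1.15 to 0.19 (108 to 289 reads). Scd2 ran from 0.77 over 2.59 to 3.01 in WT, with the 3 libraries of set A the lowest, and rose by 2.09 (SE 0.36, adjusted p = 0.000675), or 2.51 and 1.87 within sets A and B. Acsl5 ran from 3.24 over 3.66 to 4.18 and rose by 0.76 (SE 0.20, adjusted p = 0.0158), or 0.69 and 0.79 within the sets, just past the fold threshold, which it missed without WT 4 (0.69) and in other settings given at the end. Thus 3 of the 13 fatty acid genes rose, in carboxylation, desaturation and activation. Fasn was at 1.59 (SE 0.55, adjusted p = 0.0613) and Acly at 0.86 (SE 0.39, adjusted p = 0.154).

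In the sterol branch 5 of 17 genes rose. Stard4 rose by 2.36 (SE 0.62, adjusted p = 0.0149), Idi1 by 2.14 (SE 0.62, adjusted p = 0.0255) and Sqle by 1.61 (SE 0.36, adjusted p = 0.0056). Within sets A and B the differences were 3.75 and 1.12 for Stard4, 3.21 and 1.23 for Idi1 and 2.01 and 1.24 for Sqle. Idi1 had 5 to 47 reads in WT libraries and its highest, WT 4 at -0.71, lay above TG Me-X04+ 2 and 3, which made it the 1 called member whose groups overlapped. Its call was lost without WT 6 (adjusted p = 0.0501) or without TG Me-X04+ 1 (1.50, adjusted p = 0.0984), and that of Stard4 without TG Me-X04+ 2 (1.96, adjusted p = 0.0641). Fdft1 ran from 2.64 over 2.93 to 3.74 in WT and rose by 1.56 (SE 0.30, adjusted p = 0.00163), while Ctsb on its other strand rose by 2.20 (adjusted p = 6.62e-07). Hmgcs1 ran from 1.61 over 1.82 to 2.23 in WT and rose by 1.04 (SE 0.26, adjusted p = 0.0117), close to its difference between the TG groups. Sets A and B gave 1.96 and 1.11 for Fdft1 and 1.32 and 0.73 for Hmgcs1. Sqle ran from -1.04 over -0.55 to -0.06 in WT. Of the others, Sc5d (1.22, adjusted p = 0.0666), Msmo1 (1.01, adjusted p = 0.081) and Dhcr7 (1.06, adjusted p = 0.0847), late enzymes of the pathway, missed the threshold, and Mvk and Fdps were at -0.25 and -0.20.

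Of the regulators, Srebf2 and Insig1 rose. Srebf2 ran from -1.55 over 0.62 to 1.04 in WT libraries, with set A holding the lowest pair, and rose by 1.88 (SE 0.46, adjusted p = 0.0103). Insig1 ran from -0.48 over 0.58 to 1.28 and rose by 1.87 (SE 0.37, adjusted p = 0.00219). Within sets A and B the differences were 2.43 and 1.51 for Srebf2 and 1.68 and 2.04 for Insig1. Srebf1 was at 0.61 (SE 0.47, adjusted p = 0.438), Scap at 0.19 (SE 0.45, adjusted p = 0.832) and Insig2 at -0.28 (SE 0.35, adjusted p = 0.659).

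By branch, the mean log2 RPKM over the 17 sterol genes was -0.02 ± 0.37 in WT (SD, n = 7), 0.46 ± 0.10 in TG Me-X04- (n = 5) and 0.94 ± 0.20 in TG Me-X04+ libraries (n = 4). The ranges did not overlap, being -0.66 to 0.33, 0.34 to 0.55 and 0.72 to 1.12, but those of WT and TG Me-X04- were barely apart (0.327 against 0.344). Over sterol members with a mean log2 RPKM of at least 0, the difference of TG Me-X04- from WT was 0.30 in place of 0.48. That between the TG groups was 0.63 in place of 0.48. The regulators stood at 1.10 ± 0.43, 1.62 ± 0.15 and 1.96 ± 0.32, and the fatty acid genes at 1.33 ± 0.25, 1.81 ± 0.30 and 2.17 ± 0.34, where neighbouring groups overlapped. No p is given for these means, because the genes were chosen with earlier results known. Within set A the sterol mean was -0.38, 0.45 and 0.91 and within set B 0.25, 0.47 and 0.97, so that the step from WT to TG Me-X04- was the larger one in set A and the smaller one in set B. The fatty acid mean within set A was 1.09, 2.11 and 2.02, with no step from TG Me-X04- to TG Me-X04+, and within set B 1.50, 1.60 and 2.32.

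**Figure D4:**
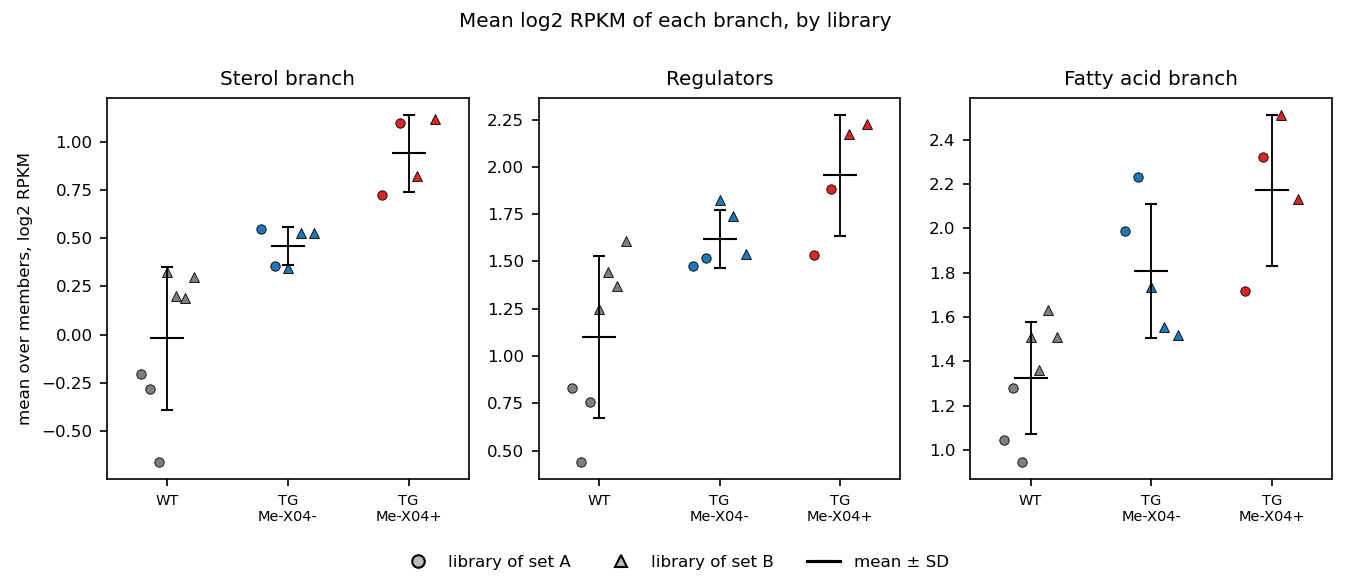
Mean log2 RPKM over the members of the sterol branch (17 genes), the regulators (5) and the fatty acid branch (13) in each library (vertical axes, each with its own range), by group (horizontal axes), circles for set A and triangles for set B, with the group mean and SD. The sterol means of the 3 groups do not overlap, though WT and TG Me-X04- are barely apart, and WT libraries of set A lie below those of set B.

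Levels in WT microglia, compared per kilobase of gene, differed widely among members. The median over members of the WT mean was 0.50 log2 RPKM, below the 1.56 of all genes, and 12 of the 35 lay above the latter. Fads1 (4.02 ± 0.34), Acsl4 (3.80 ± 0.22), Acsl5 (3.69 ± 0.31) and Acly (3.65 ± 0.56) were highest, and their ranges over WT libraries overlapped. Scd1 (-3.38 ± 1.73), Elovl6 (-2.95 ± 0.58), Stard4 (-2.38 ± 1.21) and Idi1 (-2.23 ± 0.96) were lowest, at 0 to 51 reads a library, and their values are correspondingly uncertain. Insig2 (3.09 ± 0.53) was above Insig1 (0.50 ± 0.69) in every WT library, while in TG Me-X04+ libraries their ranges overlapped (1.88 to 3.91 and 1.83 to 2.92). Srebf1 and Srebf2 had like levels in WT (0.34 ± 0.82 and 0.20 ± 0.96).

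Of 51 further genes of sterol and fatty acid metabolism, 43 were in the table, and 3 rose and 0 fell in TG Me-X04+ against TG Me-X04- microglia. Over all genes 3.44% were called higher and 2.06% lower in that comparison. The 3 that rose included Tmem97, a sterol-responsive membrane protein (log2FC 1.57, adjusted p = 0.0215), and Hacd2, a dehydratase of fatty acid elongation (1.52, adjusted p = 0.00377). The median over the 43 was -0.26, below the -0.09 of all genes. Against WT, 0 of the 43 were called in TG Me-X04- microglia by limma, with 1 at an unadjusted p under 0.05. Over all genes 0.189% were called higher and 0.0111% lower there, and 929 of 17951 had an unadjusted p under 0.05. Of the 43, 5 rose and 3 fell in TG Me-X04+ against WT, where 8.25% of all genes were called higher and 6.02% lower. Those that rose included Hacd2 (1.97, adjusted p = 6.12e-05), Tmem97 (1.54, adjusted p = 0.00621) and Soat1, which esterifies cholesterol for storage (0.88, adjusted p = 0.00534). Those that fell included Stard5, a sterol transfer protein (-1.01, adjusted p = 0.000948), and Pnpla3, a lipid droplet protein, which had 0 reads in every TG Me-X04+ and 0 to 63 in the WT libraries.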

How the data were processed

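RNA from sorted microglia was amplified and sequenced as bulk libraries. Per the processing notes and methods, the authors trimmed reads with Trim Galore (0.4.4), aligned them to GRCm38 with STAR (2.5.4b), counted genes with featureCounts and normalised with edgeR (3.24.3), and they deposited log2 RPKM values with TMM scaling, on which 100% of values lay within 0.01 of a whole number of reads. The table also holds columns of the authors' own comparisons (fold changes, test statistics and p-values), which were not used. The study tested counts with quasi-likelihood models. Here limma (3.58.1, R 4.3.3) was fitted to the deposited log2 values of all 17951 genes and 3 groups, with a variance trend, two-sided tests and Benjamini-Hochberg adjustment over all genes, since the deposited values are not counts. The thresholds were an adjusted p of 0.05 and an absolute log2FC of 0.7. The members and lists were chosen with earlier results of these data known. Named by rule were all called members, all regulators and, in each step of the pathways, the other members with the highest and lowest log2FC between the TG groups, and genes of the further list that were called, some of which are not reported here. Further names, such as Flt1, Ctsb and Gm13502, were chosen after their values were seen. Same-numbered TG libraries carry the same animal label, and their deviations correlated at 0.317 on average (0.292 to 0.329), against 0.275 for other numbers of the same set. WT numbers are other animals. By the methods each replicate of a group is a mouse. Sequences and motifs were read from RefSeq windows with Python (3.11.15), and figures drawn with matplotlib (3.10.9). The fit was tested on simulated data.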

Additional observations from a re-analysis of the deposited data

Results flagged for a closer look

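Among the 105 combinations of member and group, 4 had 1 library far from the others, and chance would flag about 0.05 of groups. Nsdhl was low in TG Me-X04- 2, at 0.56 log2 RPKM (82 reads), where the next library was at 1.45. The other 3 were all in WT 3. Dhcr7 was at -0.63 there (35 reads) with the next at 0.48, Fasn at -2.59 (23 reads) with the next at -0.56, and Fads1 at 3.27 (495 reads) with the next at 4.03.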

How the results depend on the processing

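No called member reversed its direction in any of the alternatives. Between the TG groups 3 members were called, and 5 under log2(RPKM + 1), 5 with a term for the 2 sets, 5 with limma voom on the recovered reads, 6 with the animal as a random replicate block (Fdft1, Insig1 and Scd2 being gained) and 1 under scaling by reads outside mitochondrial genes. Without any 1 library they numbered 1 to 3. With the animal as a fixed replicate block over the paired TG libraries they numbered 3, Acaca, Fdft1 and Scd2, Hmgcs1 and Sqle being lost. A replicate block on the number in all 3 groups, where WT numbers are other animals, also called those 3. Between TG Me-X04- and WT, 1 member, Acaca, was called with arrayWeights and 0 in every other setting, libraries left out included. Between TG Me-X04+ and WT, 9 to 11 were called without 1 library and 7 to 14 in the 15 other settings. For these settings the calls over all genes are given below only for the scaling outside mitochondrial genes and quantile normalization, between the TG groups. The other counts stand without that share, and a setting that calls more genes may also call more members. Of the branch means between the TG groups, the sterol difference of 0.48 became 0.70 under quantile normalization and 0.22 under scaling outside mitochondrial genes, which took the regulators from 0.34 to 0.063 and the fatty acid genes from 0.36 to 0.099. Under log2(RPKM + 1) the sterol difference went from 0.48 to 0.18 for TG Me-X04- against WT and from 0.96 to 0.56 for TG Me-X04+ against WT, and the fatty acid difference from 0.85 to 0.54 in the latter. That pseudocount shrinks low values by construction, and the cause of the other changes was not tested. The scaling outside mitochondrial genes moved the median log2FC of all genes from -0.09 to -0.36 between the TG groups, with 308 called higher and 680 lower in place of 617 and 369, and quantile normalization gave 421 and 407. Acsl5 against WT missed the fold threshold under quantile normalization and under that scaling, and Idi1 lost its call with arrayWeights (adjusted p = 0.144), with 2 groups in the fit (0.0631) and with the replicate block on the number (0.0607), as did Stard4 with arrayWeights (0.102). The set term, voom, the mitochondrial scaling and both blocks on the animal were chosen after seeing the data. Members with under 50 reads in a library, such as Mvk, Mvd, Idi1 and Scd1, have uncertain values there, and the cause of the low reads was not tested.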
